A study of Mus musculus with 12 samples.

Results

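The mitotic spindle and kinetochore genes described here are 48 genes, chosen by gene symbol from the 53465 genes of a table of RNA-seq read counts. The libraries were made from LSKs, the Lin- Sca-1+ c-Kit+ cells of mouse BM, a fraction that contains the HSCs and the multipotent progenitors. The 4 groups held 3 libraries each: untreated Tespa1+/+, untreated Tespa1-/-, Tespa1+/+ at day 9 after 5-FU and Tespa1-/- at day 9 after 5-FU. The 5-FU, a drug that kills dividing cells, was given as a single intraperitoneal injection of 150 mg/kg. The Tespa1-/- mice carried the Tespa1tm1Smoc allele in all cells and had been backcrossed to C57BL/6 for more than 6 generations. The Tespa1+/+ mice were their wild-type littermates, and the mice of all groups were males aged 8 to 10 weeks. All LSKs were depleted of lineage-positive cells and sorted. The labels number the libraries 1 to 3 within a group without saying which mice they came from, so the p-values below measure the spread between libraries.

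Mitosis is driven by a wave of kinases, and the chromosomes are then moved by a spindle of microtubules that attach to each chromosome at its kinetochore. A surveillance system, the spindle assembly checkpoint, holds the cell in metaphase until every kinetochore is attached, and the anaphase-promoting complex then releases the sister chromatids. Most of these genes are transcribed mainly in the G2 and M phases, through promoters that often carry a cell cycle homology region (CHR) and CCAAT boxes, the latter bound by NF-Y. HSCs rest outside the cell cycle for most of their life, whereas the progenitors in the LSK fraction divide often, and 5-FU is used because it forces the surviving HSCs into division.

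The promoters of members that moved together are shown first, because many of the 48 genes share letters that were not used to choose the 48. The windows printed below were themselves chosen for holding these letters. Promoter windows of 300 bases, 250 before and 50 after the RefSeq gene start, were found for 40 of the 48 genes (43 windows, RefSeq on GRCm38.p6). The 6 windows printed here belong to the member with the largest change after 5-FU in its role group, where that member is among the named genes and holds both motifs. In the other 3 role groups that member was also called higher but lacked a motif: the Birc5 window held neither, that of Cenpe CCAAT alone and that of Anln TTTGAA alone. The 6 are Aurka (chr2:172370521-172370820, - strand), Bub1b (chr2:118597961-118598260, + strand), Ube2c (chr2:164769679-164769978, + strand), Kif22 (chr7:127042371-127042670, - strand), Hmmr (chr11:40733388-40733687, - strand) and Mki67 (chr7:135716330-135716629, - strand). Each is printed 5′ to 3′ on the strand of its gene, and the capitals mark every TTTGAA (the CHR letters) and every CCAAT, read on either strand, so that TTCAAA and ATTGG are the same motifs on the other strand.
Aurka: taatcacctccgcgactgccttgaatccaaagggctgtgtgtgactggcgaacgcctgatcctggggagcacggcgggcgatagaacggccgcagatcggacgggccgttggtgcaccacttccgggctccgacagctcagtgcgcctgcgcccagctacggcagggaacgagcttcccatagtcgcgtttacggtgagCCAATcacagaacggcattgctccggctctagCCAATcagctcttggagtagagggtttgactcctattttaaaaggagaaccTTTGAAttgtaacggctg
Bub1b: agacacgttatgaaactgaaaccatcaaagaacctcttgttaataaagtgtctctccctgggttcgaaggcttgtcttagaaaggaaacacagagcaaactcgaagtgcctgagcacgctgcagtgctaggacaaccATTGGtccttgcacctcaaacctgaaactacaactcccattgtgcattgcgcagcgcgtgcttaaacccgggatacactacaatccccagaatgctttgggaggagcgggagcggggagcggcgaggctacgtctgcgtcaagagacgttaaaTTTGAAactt
Ube2c: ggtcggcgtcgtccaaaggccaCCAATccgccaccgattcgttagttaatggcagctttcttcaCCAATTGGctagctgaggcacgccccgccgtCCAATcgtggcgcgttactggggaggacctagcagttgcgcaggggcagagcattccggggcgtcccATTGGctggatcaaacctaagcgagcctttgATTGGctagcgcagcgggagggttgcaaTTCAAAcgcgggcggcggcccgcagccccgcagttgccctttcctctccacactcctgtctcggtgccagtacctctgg
Kif22: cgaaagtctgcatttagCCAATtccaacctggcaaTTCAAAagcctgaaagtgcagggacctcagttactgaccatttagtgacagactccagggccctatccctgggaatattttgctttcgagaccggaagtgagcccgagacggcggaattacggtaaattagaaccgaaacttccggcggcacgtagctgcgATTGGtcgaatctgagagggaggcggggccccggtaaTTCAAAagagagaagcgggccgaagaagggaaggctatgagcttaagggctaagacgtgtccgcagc
Hmmr: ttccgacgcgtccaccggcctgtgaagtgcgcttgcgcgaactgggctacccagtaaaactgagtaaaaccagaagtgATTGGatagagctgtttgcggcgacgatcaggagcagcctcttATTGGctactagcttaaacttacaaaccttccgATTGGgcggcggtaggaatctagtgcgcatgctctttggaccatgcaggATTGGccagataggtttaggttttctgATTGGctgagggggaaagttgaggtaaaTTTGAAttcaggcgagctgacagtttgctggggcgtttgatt
Mki67: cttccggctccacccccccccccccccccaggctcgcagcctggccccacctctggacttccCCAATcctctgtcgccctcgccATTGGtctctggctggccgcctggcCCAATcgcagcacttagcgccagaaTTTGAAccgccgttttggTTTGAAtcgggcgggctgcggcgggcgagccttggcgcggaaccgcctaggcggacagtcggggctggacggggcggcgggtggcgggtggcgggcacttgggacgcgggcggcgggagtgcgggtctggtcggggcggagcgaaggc

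In the Hmmr window the CHR letters began 8 bases after the start and 5 CCAAT boxes lay before it, the nearest 20 to 16 bases before the start. The Ube2c window held 6 CCAAT matches, 2 of which overlap each other in a stretch that reads the same on both strands, and its CHR letters lay 29 to 24 bases before the start. In Kif22 the nearer CHR match lay 17 to 12 bases before the start and a CCAAT match 54 to 50 bases before it. The Mki67 window differed from these, since both of its CHR matches lay farther out, from 116 to 93 bases before the start. Over all members, TTTGAA was present in 33 of the 43 windows (76.7%), against 17.9% of all 32851 windows and 12.5% of the 13343 windows of genes tested after 5-FU. CCAAT was present in 76.7% of the members' windows, against 37.4% of all windows, and both motifs in 67.4%, against 6.95%. Of the 31 matched genes called higher in Tespa1-/- LSKs after 5-FU, 27 held TTTGAA, and of the 9 matched genes not called 3 did. These matches are descriptions of letters in a window, with no test.

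**Figure D1:**
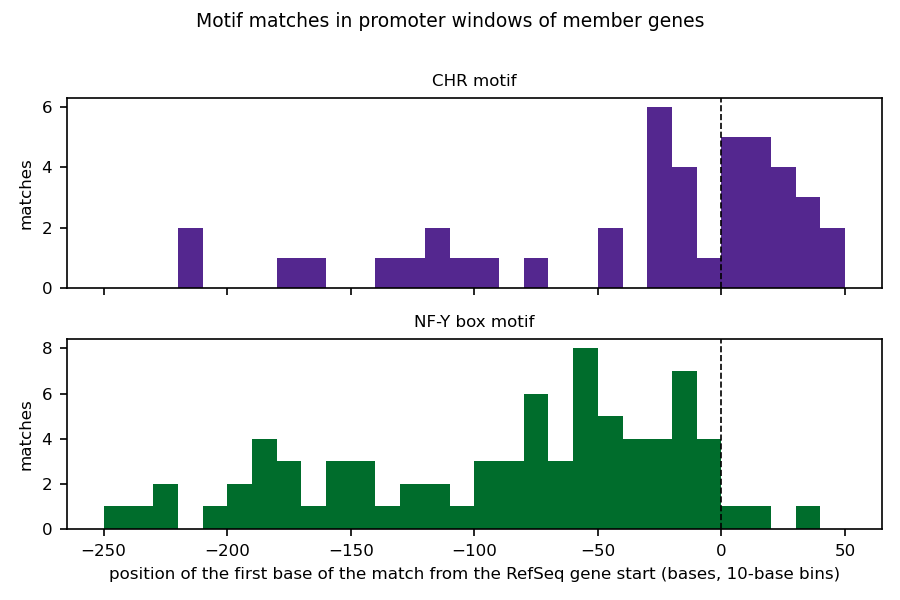
Position of each motif match in the 43 promoter windows of 40 member genes, by the distance of its first base from the RefSeq gene start (bases, negative before the start); bars count matches per 10 bases. Most CHR matches lie within 50 bases on either side of the start (dashed line), and the NF-Y box matches lie mostly before it.

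Library totals ran from 22118154 to 28275079 counts. A floor of 3 counts, which covers counting error only, equalled 0.107 to 0.136 CPM, the depth-scaled count with TMM factors used throughout. Tespa1 itself, the targeted gene, was lower in every Tespa1-/- library than in every Tespa1+/+ library of the same treatment. It had 49.8, 43.0 and 46.6 CPM in untreated Tespa1+/+, 34.5, 34.9 and 34.8 in untreated Tespa1-/-, 47.2, 55.0 and 57.5 in Tespa1+/+ after 5-FU and 20.8, 19.8 and 17.3 in Tespa1-/- after 5-FU (log2 fold change -0.42 ± 0.09 (SE), adjusted p = 0.0316 untreated, and -1.47 ± 0.12 (SE), adjusted p = 9.4e-05 after 5-FU). Tespa1 reads thus remained in every Tespa1-/- library. The deleted part of the gene is not given in the sources used here, and the cause of the remaining reads was not tested. Of the genes that define the sort, Kit was at 329 to 474 CPM in all 12 libraries, whereas Ly6a, which encodes Sca-1, was at only 10.6 to 45.2 CPM.

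All 48 genes passed the filter on low counts in every comparison. Their levels per gene length ran from 1.41 FPKM for Pttg1 to 149 FPKM for Mki67, with a median of 10.4 FPKM over the 12 libraries. After Mki67, the highest were Incenp (83.5 FPKM), Hmgb2 (76.6 FPKM) and Top2a (75.1 FPKM). No member was near the detection limit, since the lowest value in any library was 91 counts, for Pttg1.

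The members were higher in Tespa1-/- than in Tespa1+/+ LSKs at day 9 after 5-FU. Of the 48, 39 were called higher and 0 lower at an adjusted p below 0.05, where 7.34% of the 17239 genes tested were called higher and 5.78% lower. With no adjustment, edgeR's quasi-likelihood test gave 44 members higher and 0 lower at p below 0.05 (14.2% and 12.6% of all genes), and DESeq2 called 41 higher and 0 lower (9.44% and 7.88%). The fold change was positive for 47 of 48, with a median log2 fold change of 0.56 (1.47-fold), against -0.01 over all genes tested. The changes were moderate: 20 members passed a fold of 1.5, all with an unadjusted P below 0.05, a pair of thresholds that 5.79% of all genes passed upward and 5.94% downward, and 2 members reached a fold of 2. For 45 of 48 every Tespa1-/- library lay above every Tespa1+/+ library, which was so for 17.5% of all genes tested. Leaving out each of the 6 libraries in turn left 33 to 38 members called higher, and 31 of the 39 stayed called in every omission. The other 8 were Cdc25c, Ckap2l, Ckap5, Ncapg, Ndc80, Smc4, Spc24 and Ttk, of which 6 were lost without Tespa1-/- library 1, 4 without Tespa1+/+ library 3, 3 each without Tespa1-/- library 2, Tespa1-/- library 3 or Tespa1+/+ library 1, and 1, Smc4, without Tespa1+/+ library 2.

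Summed over the 48 genes, the level was 8198 to 8426 CPM in Tespa1-/- LSKs after 5-FU. It was 5733 to 5850 CPM in Tespa1+/+ LSKs after 5-FU, 5963 to 6020.5 CPM in untreated Tespa1+/+ LSKs and 6040 to 6091 CPM in untreated Tespa1-/- LSKs. The 3 libraries of Tespa1-/- LSKs after 5-FU thus stood above the other 9, which lay close together. The same 3 libraries had the lowest mitochondrial share of counts, 8.15 to 8.71% against 9.42 to 10.2% in the other 9, and its part in the result was not tested. In 38 of the 48 genes each of those 3 libraries was above all of the other 9, an arrangement found for 8.89% of all genes. In bulk RNA, more cells that express a gene and more RNA per cell cannot be told apart.

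**Figure D2:**
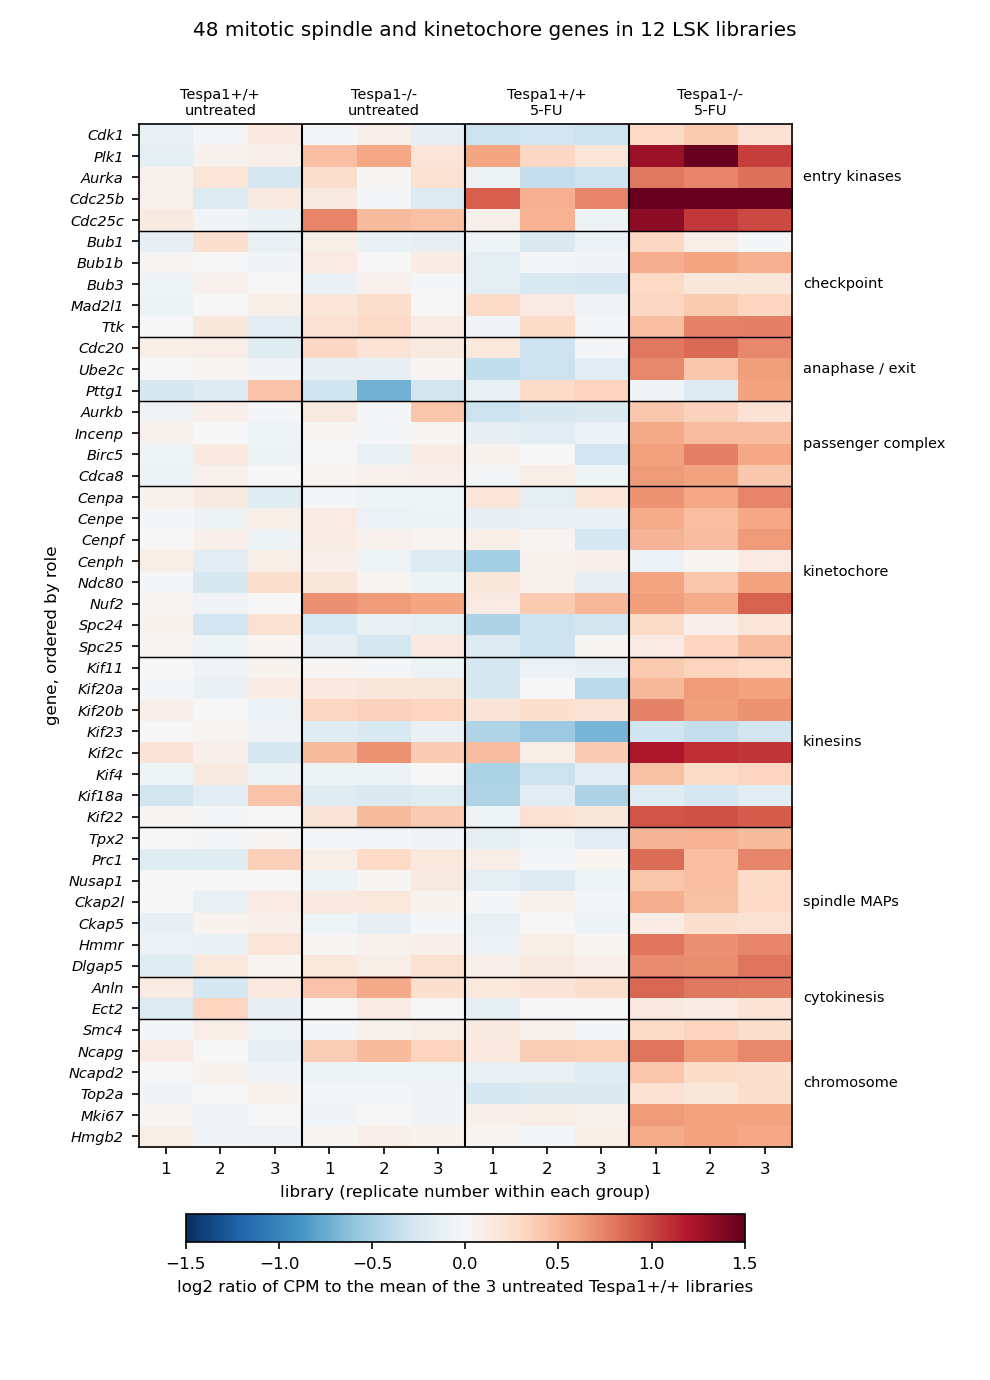
Level of each of the 48 genes (rows, ordered by role) in each of the 12 libraries (columns), as the log2 ratio of its CPM to the mean of the 3 untreated Tespa1+/+ libraries. The median over genes was 0.461 to 0.577 in the 3 libraries of Tespa1-/- LSKs after 5-FU and -0.075 to 0.057 in the other 9 libraries.

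The libraries of Tespa1-/- LSKs after 5-FU also differed in genes that mark neutrophils and red cells. All 10 neutrophil genes measured were called higher than in Tespa1+/+ LSKs after 5-FU, and their sum was 1058 to 1061 CPM against 3.66 to 8.42 CPM. Of these 10, 4 passed the filter on low counts in the untreated comparison and 5 in the comparison within Tespa1+/+ LSKs. The others entered the test mainly through the Tespa1-/- libraries after 5-FU, so that their direction was largely fixed by the filter. In Tespa1+/+ LSKs after 5-FU, Cd177, Fcnb and Retnlg were at 0 counts in every library. All 10 erythroid genes were called higher, with a sum of 479 to 487 CPM against 43.1 to 56.5 CPM, and none was at 0 in a whole group. Of these, 7 passed the filter in the comparison within Tespa1+/+ LSKs. The 8 surface genes of LSKs summed to 737 to 779 CPM against 1183 to 1203 CPM, and 5 of the 8 were called lower, among them Flt3 (-0.89) and Kit (-0.45 on the log2 scale). Of the other marker lists, 2 of 8 B-lineage, 2 of 5 tested T and NK, 1 of 6 macrophage and 1 of 5 megakaryocyte genes were called higher, and of 4 genes for antigens in the lineage cocktail 2 were. Unadjusted, edgeR gave 4 B-lineage, 3 T and NK, 5 macrophage, 2 megakaryocyte and 3 lineage cocktail genes higher at p below 0.05 (14.2% of all genes). DESeq2 called 2, 3, 3, 2 and 3 of them higher in the same order (9.44%), and 0 were lower by either count. The part of such cells in the members' difference was not tested.

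**Figure D3:**
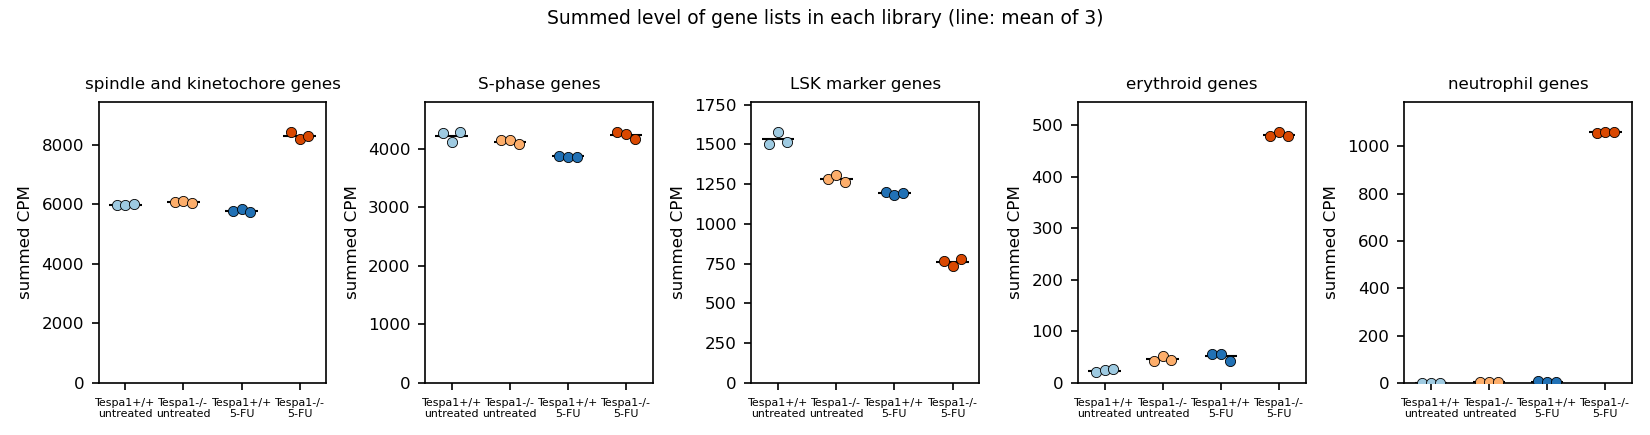
Summed level (CPM) of the 48 spindle and kinetochore genes and of 4 other gene lists in each library (points), with the mean of 3 as a line. The members summed to 8198 to 8426 CPM in Tespa1-/- LSKs after 5-FU and to at most 6091 CPM elsewhere, and the erythroid and neutrophil sums were highest in the same 3 libraries. The S-phase genes summed to 4158 to 4286 CPM in Tespa1-/- and 3855 to 3882 CPM in Tespa1+/+ LSKs after 5-FU, and to 4081 to 4276 CPM in untreated LSKs.

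All 5 mitotic entry kinases and phosphatases were called higher in Tespa1-/- LSKs after 5-FU, with a median log2 fold change of 0.94, the highest of the 9 role groups. Plk1, the Polo-like kinase that acts on centrosomes, kinetochores and cytokinesis, had 67.9, 79.2 and 57.1 CPM in Tespa1-/- and 41.8, 34.4 and 31.5 CPM in Tespa1+/+ LSKs after 5-FU. In untreated LSKs it had 37.9, 41.5 and 31.5 CPM in Tespa1-/- and 25.2, 28.9 and 29.3 CPM in Tespa1+/+. The genotypes did not overlap in either treatment, but edgeR called only the difference after 5-FU, while DESeq2 called Plk1 in untreated LSKs as well (log2 fold change 0.92 ± 0.14 (SE), adjusted p = 0.00314, against 0.41 ± 0.13 (SE), adjusted p = 0.117 untreated). Aurka, the Aurora kinase of the centrosome, had 49.0, 47.0 and 50.1 CPM in Tespa1-/- and 26.7, 22.0 and 22.8 CPM in Tespa1+/+ LSKs after 5-FU. Its untreated values, 33.9, 28.5 and 33.0 CPM in Tespa1-/- and 29.5, 32.1 and 23.8 CPM in Tespa1+/+, overlapped. Its difference after 5-FU was the largest of the 48 (1.03 ± 0.11 (SE), adjusted p = 0.00043). Cdc25b, a phosphatase that activates CDK1, rose with 5-FU in both genotypes. It had 20.2, 16.7 and 21.1 CPM in untreated and 35.9, 27.7 and 31.9 CPM in 5-FU-treated Tespa1+/+ LSKs, and 21.1, 18.9 and 16.7 and 66.0, 62.5 and 65.8 CPM in Tespa1-/- LSKs. The 3 libraries of Tespa1-/- LSKs after 5-FU were above all others, and the genotype difference was 1.02 ± 0.11 (SE), adjusted p = 0.00039. Cdk1 (0.61), the kinase that starts mitosis, and Cdc25c (0.94), another activator of it, were also called, Cdc25c no longer without Tespa1+/+ library 1 or 3 or without Tespa1-/- library 1 after 5-FU.

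**Figure D4:**
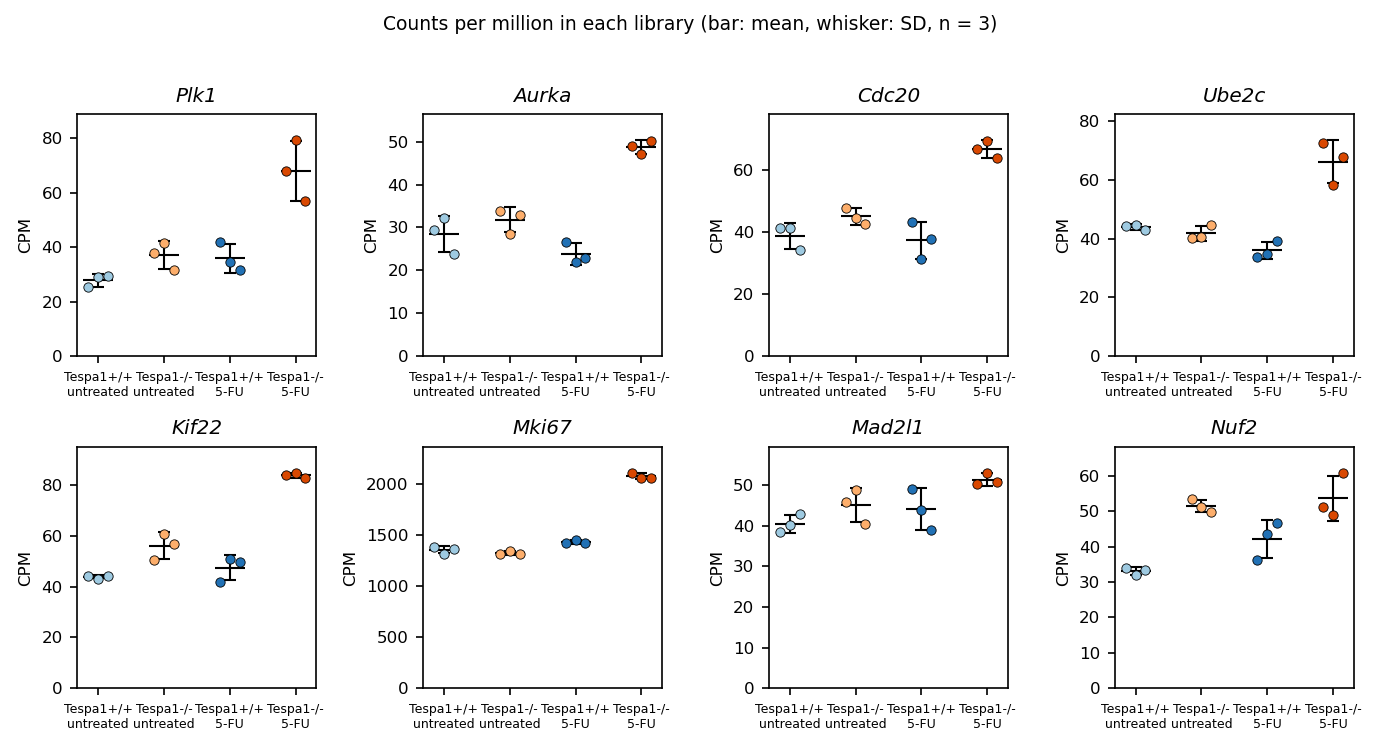
CPM of 8 members in each library (points), with the mean (bar) and SD (whisker, n = 3), from 0 on each axis. Plk1, Aurka, Cdc20, Ube2c, Kif22 and Mki67 are highest in Tespa1-/- LSKs after 5-FU, Mad2l1 has group means of 40.4 to 51.3 CPM, the highest also in Tespa1-/- LSKs after 5-FU, and Nuf2 is already at 49.8 to 53.4 CPM in untreated Tespa1-/- LSKs.

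Of the 5 genes of the spindle assembly checkpoint, 3 were called higher, with a median of 0.41. Bub1b encodes BUBR1, the checkpoint protein that inhibits the anaphase-promoting complex, and had 205, 212 and 203 CPM in Tespa1-/- and 128, 139 and 136 CPM in Tespa1+/+ LSKs after 5-FU. Untreated libraries held 153, 142 and 152 CPM in Tespa1-/- and 145, 141 and 137 CPM in Tespa1+/+. After 5-FU the genotypes were far apart relative to their spread (0.62 ± 0.06 (SE), adjusted p = 0.00016). Bub3 (0.41), which carries BUB proteins to kinetochores, and Ttk (0.57), the kinase MPS1, were called as well. The 2 not called were Bub1 (0.26 ± 0.11 (SE), adjusted p = 0.175) and Mad2l1 (0.22 ± 0.11 (SE), adjusted p = 0.232), which encodes MAD2, the subunit that blocks CDC20.

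Among the partners of the anaphase-promoting complex, Cdc20 and Ube2c were called and Pttg1 was not. Cdc20, the activator that the checkpoint holds back, had 66.8, 69.6 and 63.9 CPM in Tespa1-/- and 43.2, 31.2 and 37.8 CPM in Tespa1+/+ LSKs after 5-FU. Untreated, it had 47.9, 44.7 and 42.7 CPM in Tespa1-/- and 41.3, 41.3 and 34.1 CPM in Tespa1+/+. The difference after 5-FU was 0.83 ± 0.12 (SE), adjusted p = 0.00211. Ube2c, the ubiquitin-conjugating enzyme of the complex, had 72.4, 58.1 and 67.8 CPM in Tespa1-/- and 33.8, 34.9 and 39.3 CPM in Tespa1+/+ LSKs after 5-FU. Its untreated values were 40.3, 40.4 and 44.7 CPM in Tespa1-/- and 44.2, 44.7 and 42.8 CPM in Tespa1+/+. The genotypes overlapped before 5-FU and were separate after it (0.87 ± 0.11 (SE), adjusted p = 0.001). Pttg1, the separase inhibitor securin, was the least expressed member and the single one with a negative value after 5-FU (-0.03 ± 0.27 (SE), adjusted p = 0.964), with 6.47, 5.77 and 10.1 CPM in Tespa1-/- and 6.16, 8.13 and 8.34 CPM in Tespa1+/+ LSKs.

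All 4 genes of the chromosomal passenger complex, which corrects faulty attachments, were called higher, with a median of 0.60. Incenp, its scaffold, had 366, 343 and 342 CPM in Tespa1-/- and 228, 219.8 and 233 CPM in Tespa1+/+ LSKs after 5-FU. Untreated, it had 250.4, 243 and 256 CPM in Tespa1-/- and 259, 249 and 237 CPM in Tespa1+/+. The difference after 5-FU was 0.62 ± 0.05 (SE), adjusted p = 7.9e-05. Birc5, which encodes survivin, had 78.1, 85.8 and 76.4 CPM in Tespa1-/- and 52.9, 51.0 and 41.8 CPM in Tespa1+/+ LSKs after 5-FU, and 51.0, 47.0 and 54.9 and 48.6, 56.3 and 48.3 CPM in untreated Tespa1-/- and Tespa1+/+ LSKs. It differed by 0.72 ± 0.11 (SE), adjusted p = 0.00223 after 5-FU. Cdca8 (0.54), which encodes borealin, and Aurkb (0.58), the kinase of the complex, completed the set.

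Of 8 centromere and kinetochore genes, 5 were called higher, with a median of 0.51. Ndc80, a subunit of the microtubule-binding NDC80 complex, had 67.6, 59.5 and 68.2 CPM in Tespa1-/- and 50.6, 46.8 and 41.3 CPM in Tespa1+/+ LSKs after 5-FU. Untreated, it had 50.6, 46.3 and 42.6 CPM in Tespa1-/- and 44.1, 38.0 and 54.1 CPM in Tespa1+/+. Its difference after 5-FU (0.49 ± 0.11 (SE), adjusted p = 0.0147) had an adjusted p of 0.0573 without Tespa1-/- library 1 and 0.059 without Tespa1-/- library 3. Cenpe, a kinesin of the kinetochore, had 261, 244 and 265 CPM in Tespa1-/- and 163, 164 and 166 CPM in Tespa1+/+ LSKs after 5-FU, and 194, 167 and 169 and 176, 169 and 188 CPM in untreated Tespa1-/- and Tespa1+/+ LSKs. It differed by 0.64 ± 0.05 (SE), adjusted p = 0.0001. Cenpa, the histone H3 variant that marks centromeres, had 75.6, 71.1 and 79.2 CPM in Tespa1-/- and 54.0, 43.4 and 53.8 CPM in Tespa1+/+ LSKs after 5-FU, and 47.0, 45.6 and 45.6 and 49.3, 52.0 and 41.8 CPM in untreated Tespa1-/- and Tespa1+/+ LSKs. It differed by 0.58 ± 0.10 (SE), adjusted p = 0.00666. Of the 4 subunits of the NDC80 complex, Ndc80 and Spc24 (0.53 ± 0.11 (SE), adjusted p = 0.0132, not called without Tespa1-/- library 1) passed the test, and Nuf2 (0.35 ± 0.13 (SE), adjusted p = 0.116) and Spc25 (0.46 ± 0.13 (SE), adjusted p = 0.0549) did not, nor did Cenph (0.12). The fold changes of the 4 subunits lay close together relative to their SE, and whether they differ from each other was not tested. DESeq2 also called Spc25, and 1 fit over 12 libraries called both Spc25 and Nuf2.

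Of 8 mitotic kinesins, 6 were called higher, with a median of 0.58. Kif11, the motor that pushes the spindle poles apart, had 276, 266 and 259.7 CPM in Tespa1-/- and 177, 198 and 194 CPM in Tespa1+/+ LSKs after 5-FU. Untreated, it had 214, 208 and 201 CPM in Tespa1-/- and 210.2, 204 and 219 CPM in Tespa1+/+. Its difference after 5-FU was 0.49 ± 0.06 (SE), adjusted p = 0.00075. Kif22, a chromosome-bound kinesin, had 84.0, 84.6 and 82.5 CPM in Tespa1-/- and 41.8, 51.0 and 49.5 CPM in Tespa1+/+ LSKs after 5-FU. Its untreated values were 50.3, 60.7 and 56.9 CPM in Tespa1-/- and 44.2, 43.1 and 44.2 CPM in Tespa1+/+. The genotypes were separate in both treatments, with 0.82 ± 0.09 (SE), adjusted p = 0.00053 after 5-FU and 0.36 ± 0.09 (SE), adjusted p = 0.0607 untreated. Kif2c (0.81), a microtubule depolymerase, Kif20a (0.79), a cytokinesis motor, Kif4 (0.66), a chromokinesin, and Kif20b (0.46) were the other 4 called. Kif23 (0.24 ± 0.08 (SE), adjusted p = 0.073) and Kif18a (0.15 ± 0.14 (SE), adjusted p = 0.533) were not called by edgeR in the 6 libraries, though DESeq2 and 1 fit over 12 libraries called Kif23.

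All 7 spindle microtubule-associated genes were called higher, with a median of 0.61. Tpx2, the activator that brings Aurora A to the spindle, had 199.8, 201 and 194 CPM in Tespa1-/- and 128, 134 and 126 CPM in Tespa1+/+ LSKs after 5-FU. Untreated, it had 139, 138 and 136 CPM in Tespa1-/- and 141, 137 and 142 CPM in Tespa1+/+, within a few CPM of each other. Its difference after 5-FU was 0.61 ± 0.06 (SE), adjusted p = 0.00015. Hmmr, a hyaluronan receptor that also binds the spindle, had 116, 108 and 111 CPM in Tespa1-/- and 63.1, 71.3 and 68.6 CPM in Tespa1+/+ LSKs after 5-FU, and 67.7, 69.9 and 70.9 and 63.2, 62.4 and 76.2 CPM in untreated Tespa1-/- and Tespa1+/+ LSKs. It differed by 0.72 ± 0.07 (SE), adjusted p = 0.00029. The other 5 ran from Ckap5 (0.25), a microtubule polymerase, through Ckap2l (0.42), Nusap1 (0.52) and Dlgap5 (0.64) to Prc1 (0.64), which bundles the central spindle.

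Of the 2 cytokinesis genes, Anln was called and Ect2 was not. Anln, the actin-binding scaffold of the cleavage furrow, had 93.1, 88.5 and 87.5 CPM in Tespa1-/- and 57.3, 58.5 and 61.2 CPM in Tespa1+/+ LSKs after 5-FU, and 68.6, 75.6 and 60.5 and 55.8, 42.5 and 56.4 CPM in untreated Tespa1-/- and Tespa1+/+ LSKs. It differed by 0.60 ± 0.07 (SE), adjusted p = 0.00075 after 5-FU, and Ect2, the exchange factor that activates RhoA, by 0.20 ± 0.09 (SE), adjusted p = 0.179. All 6 chromosome genes were called higher, with a median of 0.45. Mki67, the proliferation antigen that coats mitotic chromosomes, had 2107, 2058 and 2049.7 CPM in Tespa1-/- and 1421, 1449 and 1415 CPM in Tespa1+/+ LSKs after 5-FU. Untreated, it had 1314, 1345 and 1311 CPM in Tespa1-/- and 1383, 1316 and 1362 CPM in Tespa1+/+. Its difference (0.53 ± 0.02 (SE), adjusted p = 2.2e-06) had the smallest SE of the 48. Top2a, which untangles chromosomes, had 942, 906 and 968 CPM in Tespa1-/- and 672, 697 and 697 CPM in Tespa1+/+ LSKs after 5-FU and differed by 0.44 ± 0.04 (SE), adjusted p = 0.0001. Hmgb2 (0.53), a chromatin-bending protein, and the condensin genes Ncapd2 (0.45), Ncapg (0.42) and Smc4 (0.24) also passed.

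**Figure D5:**
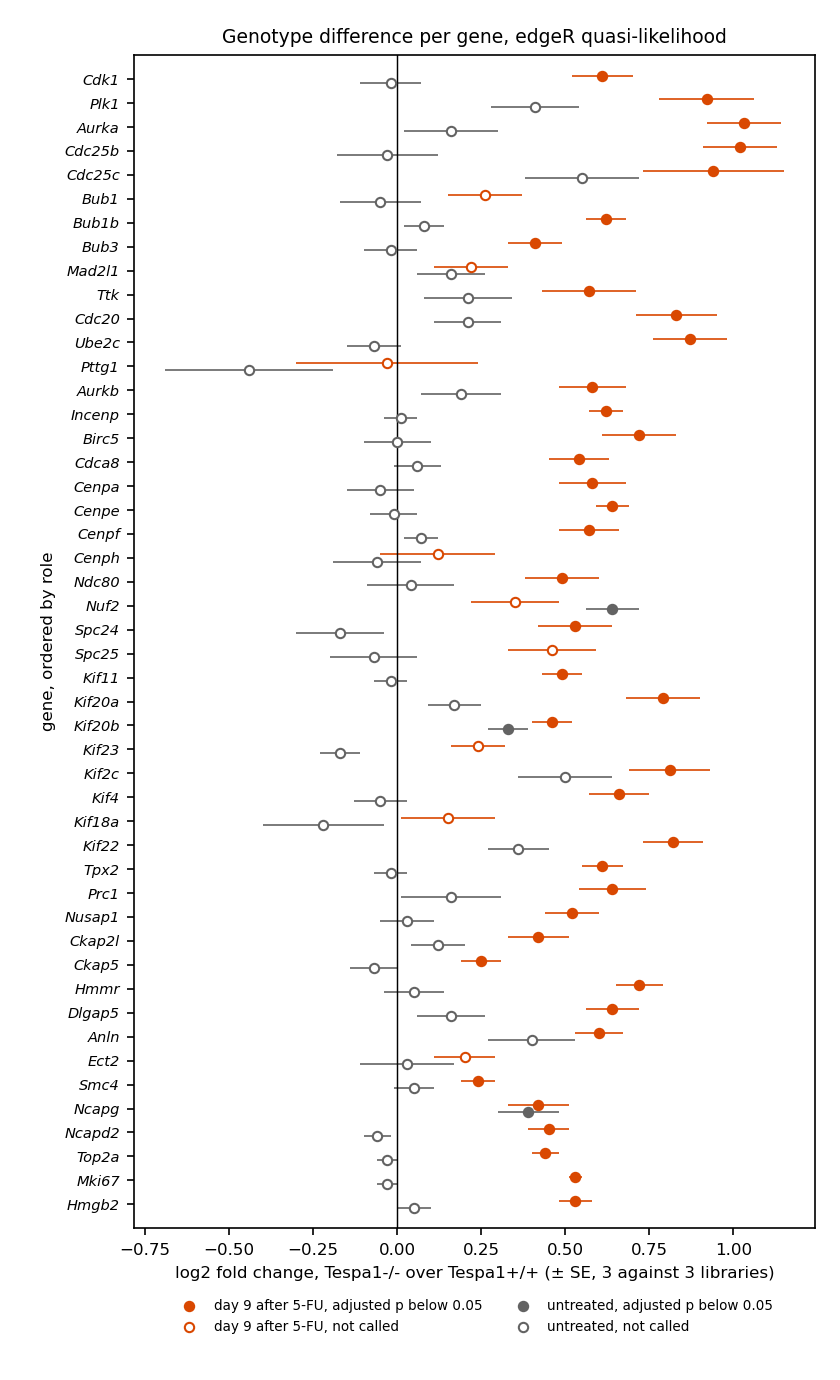
Log2 fold change of Tespa1-/- over Tespa1+/+ LSKs for each of the 48 genes (points, with SE), at day 9 after 5-FU and untreated; filled points have an adjusted p below 0.05. After 5-FU 47 of 48 points lie above 0 and 39 are filled, and in untreated LSKs 3 are filled.

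In untreated LSKs few of these genes were called between genotypes. Of the 48, 3 were called higher in Tespa1-/- LSKs (background 1.64% of 17055 genes) and 0 lower (3.59%), with a median log2 fold change of 0.03. Unadjusted, edgeR gave 8 higher and 1 lower at p below 0.05 (7.97% and 10.5% of all genes), and DESeq2 called 7 higher and 0 lower (3.10% and 5.27%), adding Anln, Kif2c, Plk1 and Kif22. At a fold above 1.5 with an unadjusted P below 0.05, 1 was higher and 0 lower (3.54% and 3.20% of all genes). Nuf2 was the largest, with 53.4, 51.3 and 49.8 CPM in Tespa1-/- and 34.0, 32.0 and 33.3 CPM in Tespa1+/+ LSKs (0.64 ± 0.08 (SE), adjusted p = 0.00313). After 5-FU it had 51.1, 48.8 and 60.9 CPM in Tespa1-/- and 36.1, 43.5 and 46.6 CPM in Tespa1+/+ LSKs, so that its genotype difference was smaller there, though the change in the difference was not called (interaction -0.29 ± 0.15 (SE), adjusted p = 0.345). Ncapg, a condensin subunit, had 62.0, 66.5 and 60.4 CPM in Tespa1-/- and 51.9, 48.1 and 44.2 CPM in Tespa1+/+ untreated LSKs (0.39 ± 0.09 (SE), adjusted p = 0.0369), and 83.5, 74.9 and 78.8 and 53.1, 61.9 and 61.3 CPM after 5-FU. Kif20b, a kinesin of cytokinesis, had 111, 113 and 112 CPM in Tespa1-/- and 94.2, 89.8 and 84.0 CPM in Tespa1+/+ untreated LSKs (0.33 ± 0.06 (SE), adjusted p = 0.0239), and 149, 137 and 142 and 102, 106 and 102 CPM after 5-FU. Both were lost, which left Nuf2 alone, when any library but untreated Tespa1+/+ library 1 was left out, with an adjusted p of 0.0768 to 0.175 for Ncapg and 0.0535 to 0.115 for Kif20b. Of the marker genes, edgeR called 3 of 8 B-lineage and 2 of 8 LSK surface genes lower in untreated Tespa1-/- LSKs. It called 1 of 8 tested erythroid, 1 of 5 tested macrophage and 1 of 4 tested megakaryocyte genes higher. DESeq2 called 4 LSK surface genes lower, and 2 erythroid and 1 of 4 tested neutrophil genes higher. The part of these genes was not tested.

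The genotype difference after 5-FU exceeded that in untreated LSKs for 26 members by the test of the difference itself, the interaction of genotype and treatment over 12 libraries. That call was made upward for 3.02% and downward for 1.99% of the 18696 genes tested, and 0 members were called downward. Unadjusted, edgeR gave 35 higher and 0 lower at p below 0.05 (9.79% and 8.90% of all genes), and DESeq2 called 28 higher and 0 lower (4.65% and 3.56%). At a fold above 1.5 with an unadjusted P below 0.05, 14 were higher and 0 lower (4.16% and 6.22% of all genes). The interaction was positive for 47 of 48, with a median of 0.49. It was largest for Cdc25b (1.05 ± 0.18 (SE), adjusted p = 0.00378), Ube2c (0.94 ± 0.14 (SE), adjusted p = 0.00134) and Aurka (0.87 ± 0.17 (SE), adjusted p = 0.0112). Of the 39 members called after 5-FU, 25 were called here, and the remaining 14 included Plk1 (0.51 ± 0.20 (SE), adjusted p = 0.19) and Kif22 (0.46 ± 0.13 (SE), adjusted p = 0.0544). Kif23 was called here (0.41 ± 0.10 (SE), adjusted p = 0.0275) without a call after 5-FU in the fit of 6 libraries, but it was called there by DESeq2 and in 1 fit over 12 libraries. Without Tespa1-/- library 1 after 5-FU the count fell to 17, and 16 of the 26 stayed called whichever library was left out. The other 10 were Bub3, Cdc20, Cdca8, Cenpa, Cenpf, Dlgap5, Kif20a, Kif23, Nusap1 and Spc24, and each omission lost 3 to 9 of the 26. The interaction was also called higher for 5 of 10 neutrophil, 6 of 10 erythroid, 4 of 8 B-lineage, 1 of 5 tested T and NK, 1 of 6 macrophage, 1 of 4 lineage cocktail and 0 of 5 megakaryocyte genes, and lower for 3 of 8 LSK surface genes. Of the megakaryocyte genes, 1 was lower and 0 higher by edgeR with p below 0.05 before adjustment, and DESeq2 called 0. Neutrophil genes that failed the filter in the comparisons without the Tespa1-/- libraries after 5-FU entered this test mainly through those libraries. The part of the marker genes in the members' interaction was not tested.

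Within genotypes, 5-FU itself led to few calls among these genes in Tespa1+/+ LSKs at day 9. There 1 was called higher after 5-FU (background 3.77% of 17002 genes) and 2 lower (4.18%), with a median of -0.06. Unadjusted, edgeR gave 6 higher and 10 lower at p below 0.05 (10.6% and 10.8% of all genes), and DESeq2 called 1 higher and 2 lower (5.90% and 6.23%). At a fold above 1.5 with an unadjusted P below 0.05, 1 was higher and 0 lower (6.33% and 3.54% of all genes). Cdc25b was the member that rose (0.72 ± 0.15 (SE), adjusted p = 0.0202), a call lost without untreated Tespa1+/+ library 2 (adjusted p = 0.0741) or without 5-FU-treated Tespa1+/+ library 1 (0.084) or 3 (0.0685). Kif23, the centralspindlin motor of cytokinesis, fell from 136, 139 and 130.2 CPM to 98.9, 92.6 and 83.5 CPM (-0.56 ± 0.08 (SE), adjusted p = 0.00321). In Tespa1-/- LSKs it had 119, 115 and 126 CPM untreated and 109.7, 105 and 111 CPM after 5-FU (-0.16 ± 0.06 (SE), adjusted p = 0.0916), a change that was not called. Top2a fell from 787, 804 and 834 CPM to 672, 697 and 697 CPM (-0.23 ± 0.04 (SE), adjusted p = 0.00757), and had 794, 801 and 782 CPM in untreated Tespa1-/- LSKs.

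In Tespa1-/- LSKs 37 members were called higher after 5-FU (background 10.7% of 17228 genes) and 0 lower (8.64%), with a median of 0.42. Unadjusted, edgeR gave 39 higher and 1 lower at p below 0.05 (17.0% and 15.4% of all genes), and DESeq2 called 37 higher and 0 lower (12.2% and 10.3%). Cdc25b (1.77 ± 0.10 (SE), adjusted p = 9.4e-06), Plk1 (0.87 ± 0.14 (SE), adjusted p = 0.00279) and Cenpa (0.70 ± 0.07 (SE), adjusted p = 0.00023) moved most. At a fold above 1.5 with an unadjusted P below 0.05, 9 were higher and 0 lower (7.78% and 6.58% of all genes). This comparison shares the Tespa1-/- libraries after 5-FU with the genotype comparison after 5-FU, and the comparison in Tespa1+/+ LSKs shares its 5-FU libraries with it too. Leaving out each library in turn left 30 to 35 members called, and 29 of the 37 stayed called in every omission. The other 8 were Cdc25c, Cdk1, Ckap2l, Ckap5, Ncapg, Nusap1, Spc24 and Ttk. Marker genes of other cells rose in the same comparison: 10 of 10 neutrophil, 10 of 10 erythroid, 8 of 8 B-lineage and 4 of 4 tested megakaryocyte genes were called higher after 5-FU. So were 3 of 5 tested T and NK genes, 3 of 4 lineage cocktail genes and 3 of 6 macrophage genes, with 1 macrophage gene lower, and of 8 LSK surface genes 2 were called higher and 3 lower. The B-lineage sum was 54.2 to 60.9 CPM in untreated and 471 to 479 CPM in 5-FU-treated Tespa1-/- LSKs. In Tespa1+/+ LSKs 8 of 8 B-lineage genes were called higher as well, with 80.1 to 92.5 CPM untreated and 402 to 417 CPM after 5-FU. There 3 of 4 tested megakaryocyte, 3 of 7 tested erythroid and 1 of 5 tested neutrophil genes were also called higher, 1 of 8 LSK surface genes higher and 2 lower. edgeR called 0 of the tested macrophage, T and NK and lineage cocktail genes there, and unadjusted p below 0.05 and DESeq2 each gave 2 T and NK genes higher and 1 macrophage gene lower. Of the 10 neutrophil genes, 4 passed the filter between the untreated groups, so the others entered the comparison within Tespa1-/- LSKs mainly through its 5-FU libraries. The part of these cells in the members' change was not tested.

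Other genes of mitosis were measured beside the 48. Of 72 further genes of the kinetochore, checkpoint, spindle and condensins, 30 were called higher in Tespa1-/- LSKs after 5-FU and 1 lower, with a median log2 fold change of 0.38. Over all genes tested these shares were 7.34% and 5.78%, which also stand beside the counts of the sublists below. Unadjusted, edgeR gave 40 higher and 3 lower at p below 0.05 (14.2% and 12.6% of all genes), and DESeq2 called 34 higher and 2 lower (9.44% and 7.88%). The 20 further spindle, kinesin and cytokinesis genes had a median of 0.58 with 13 called higher, and the 31 further kinetochore and centromere genes a median of 0.23 with 6 called higher. Knl1, the kinetochore scaffold for BUB proteins, differed by 0.74 ± 0.09 (SE), adjusted p = 0.00067, and Haspin, the kinase that recruits the passenger complex to centromeres, by 1.02 ± 0.14 (SE), adjusted p = 0.00162. Fam83d, a spindle protein, had the largest change of these lists (1.25 ± 0.22 (SE), adjusted p = 0.00506) and Kif15 (0.32) the smallest called spindle change. Knstrn (0.47), Cdca3 (0.68) and Ncaph2 (0.36) were the other named calls. Trip13, the ATPase that dismantles MAD2 complexes, was the gene called lower (-0.62 ± 0.13 (SE), adjusted p = 0.0141), with 17.5, 18.4 and 17.3 CPM in Tespa1-/- and 30.7, 25.3 and 25.7 CPM in Tespa1+/+ LSKs.

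Of 15 genes for core subunits and an activator of the anaphase-promoting complex, only Fzr1, which encodes the activator CDH1, was called higher (0.57 ± 0.10 (SE), adjusted p = 0.00582), and the median was 0.08. A share of 1 in 15 is near the background of 7.34% of all genes tested called higher, against which the counts of the next lists are also to be read (5.78% were called lower). Of 12 transcription regulators of mitotic genes, Mybl2, the B-MYB subunit of the activating complex (0.70 ± 0.12 (SE), adjusted p = 0.00582), and E2f4, an E2F of the repressive DREAM complex (0.51 ± 0.07 (SE), adjusted p = 0.0016), were called higher. Foxm1 had an adjusted p of 0.201 and a log2 fold change of 0.65, with 61.6, 118 and 70.0 CPM in Tespa1-/- and 33.4, 73.2 and 52.4 CPM in Tespa1+/+ LSKs after 5-FU, and is named here after its values were seen. Of 30 S-phase genes, 9 were called higher and 1 lower, with a median of 0.13 and a sum of 4158 to 4286 CPM in Tespa1-/- against 3855 to 3882 CPM in Tespa1+/+ LSKs after 5-FU. Ccne1, which encodes cyclin E1, had the largest called rise among them (0.84 ± 0.14 (SE), adjusted p = 0.00368), and Dtl, a subunit of a replication-coupled ubiquitin ligase, was the gene called lower (-0.38 ± 0.06 (SE), adjusted p = 0.00221). The difference between these lists and the 48 members was not tested.

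Some counts may hold reads of other genes, since the sources used here do not state whether the counting used strand. Exons of Kif20a overlap those of Cdc23 on the opposite strand over 29.3% of their length, and those of Ube2c overlap Tnnc2 over 22.8%. Cdc23 held 13465 counts over the 12 libraries against 20169 for Kif20a, and had a log2 fold change of -0.07 between genotypes after 5-FU. Tnnc2 held 22 counts against 13750 for Ube2c. Kif4 shares 15.1% with Pdzd11 (3154 counts against 22646 for Kif4) and Ncapg 13.4% with Lcorl (8972 against 18228 for Ncapg). Cdc25c shares 12.7% with Gm3550 (236 against 3161 for Cdc25c) and Prc1 11.1% with Rccd1 (2775 against 21010 for Prc1). The small RNA gene Scarna10, which lies within Ncapd2 on the same strand, held 25767 counts against 91101 for Ncapd2. The pseudogenes Kif4-ps and Kif22-ps held 59 and 6 counts in all. The members lie on 17 chromosomes, with 11 of the 48 on chromosome 2 (22.9%, against 7.48% of the genes tested).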

How the data were processed

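RNA-seq counts of 12 LSK libraries were used, in 4 groups of 3 set by the labels. The deposited table gives raw counts per library for 53465 genes, which the authors did not normalize. The authors also deposited FPKM values made from the same counts and a length per gene, which were used here only to order genes by level. The submitters' processing notes name CASAVA 1.8, HISAT2, StringTie, edgeR and GRCm38. Whether counting used strand is not given in the sources used here.

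The test was edgeR's quasi-likelihood test (edgeR 4.0.16 in R 4.3.3), run on the 6 libraries of each comparison after filterByExpr at a minimum count of 10 and TMM scaling. The interaction was fitted on 12 libraries. Values were adjusted by Benjamini-Hochberg over all genes tested, and a gene was called at an adjusted p below 0.05. A second rule took the thresholds of the study, P below 0.05 without adjustment and a fold over 1.5. Folds are those of the fitted model, and CPM values are counts over TMM-scaled library totals. The totals before scaling ran from 22118154 to 28275079. No library repeated another: the median chi-square per gene between libraries of a group was 2.16 to 5.92, and pure sampling gives 0.455. The tests were also run on counts simulated with a fixed spread for all genes. That spread was smaller than the biological coefficient of variation fitted here, 0.255 for genotype after 5-FU and 0.272 for the interaction. The run therefore cannot give the error rate of the tests in these data.

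The 48 members and all gene lists were chosen with earlier results of these data known. Values in every library are given for the member of each role group with the highest mean FPKM and that with the largest change after 5-FU, and for the 3 largest called changes in each other comparison. Of the other mitotic, regulator and S-phase lists, the highest and lowest called change after 5-FU is named. Members named outside this rule are given by their fold changes or as examples of calls that failed. Promoter windows were read from RefSeq sequences on GRCm38.p6. Alternatives were DESeq2 1.42.0, a block for the replicate number, RLE or no scaling factors in place of TMM, unfiltered genes, 1 fit over 12 libraries, omission of each library, and calls that also need a fold above 1.5. Other steps used Python 3.11.15, pandas 2.3.3, NumPy 2.4.6 and matplotlib 3.10.9.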

Additional observations from a re-analysis of the deposited data

Results flagged for a closer look

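The genotype difference in LSKs was larger after 5-FU than in untreated mice for 26 of the 48 genes, by the interaction term of edgeR's quasi-likelihood test at an adjusted p below 0.05. Of all 18696 genes tested, 3.02% were called higher and 1.99% lower by this term. Of the 26, 16 stayed called whichever library was left out. The same term was called higher for 5 of 10 neutrophil, 6 of 10 erythroid and 4 of 8 B-lineage genes and lower for 3 of 8 LSK surface genes, whose part was not tested. The values below are the log2 fold change of Tespa1-/- over Tespa1+/+ after 5-FU minus that in untreated LSKs. Among the entry kinases and phosphatases, it was called for Cdk1 (0.63), Aurka (0.87) and Cdc25b (1.05). Among the spindle assembly checkpoint, it was called for Bub1b (0.54) and Bub3 (0.43). Among the partners of the anaphase-promoting complex, it was called for Cdc20 (0.62) and Ube2c (0.94). Among the chromosomal passenger complex, it was called for Incenp (0.61), Birc5 (0.72) and Cdca8 (0.49). Among the centromere and kinetochore genes, it was called for Cenpa (0.63), Cenpe (0.65), Cenpf (0.50) and Spc24 (0.70). Among the kinesins, it was called for Kif11 (0.52), Kif20a (0.63), Kif23 (0.41) and Kif4 (0.71). Among the spindle microtubule-associated genes, it was called for Tpx2 (0.64), Nusap1 (0.49), Hmmr (0.68) and Dlgap5 (0.49). Among the chromosome genes, it was called for Ncapd2 (0.52), Top2a (0.47), Mki67 (0.57) and Hmgb2 (0.49). Neither of the cytokinesis genes, Anln (0.20) and Ect2 (0.18), was called. Nuf2 (-0.29) was the gene with a negative value, and was not called. Groups of 3 libraries are too small for the search for single outlying libraries, so none was made.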

How the results depend on the processing

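For the genotype difference after 5-FU the 39 calls stayed 39 to 42 under DESeq2, RLE size factors, library totals, no filter, 1 fit over 12 libraries and the replicate block, and all 39 stayed called under each of these. They were 20 when a fold above 1.5 was also required, with or without adjustment. The same 2 rules gave 1 higher in untreated LSKs, 0 lower in Tespa1+/+ LSKs after 5-FU, 9 higher in Tespa1-/- LSKs after 5-FU and 14 for the interaction. In untreated LSKs the 3 calls became 7 with DESeq2, 6 in 1 fit over 12 libraries and 1 without the filter or with the replicate block, where the median was 0.012 without the filter. In Tespa1+/+ LSKs, 5-FU calls were 2 higher with library totals, and 3 higher and 4 lower in 1 fit over 12 libraries. With library totals in place of TMM the medians were -0.013 for 5-FU in Tespa1+/+ LSKs and 0.446 for the interaction. Leaving out 1 library gave 33 to 38 calls after 5-FU, 1 to 3 in untreated LSKs, 0 to 1 higher for 5-FU in Tespa1+/+ LSKs, 30 to 35 for 5-FU in Tespa1-/- LSKs and 17 to 23 for the interaction, whose median ran from 0.444 to 0.511. The cause of these changes was not tested, except that omissions leave fewer libraries. Of 358 values of single named genes under the alternatives, 339 kept their direction and their side of the threshold, 18 lost it, 1 passed it and none changed direction. Replicate numbers were shared between groups by name only: deviations of libraries with the same number correlated from -0.06 to 0.05 over genes (18 pairs), and with the replicate block 39 members were called after 5-FU and 23 for the interaction, which lost Bub3, Cdc20, Dlgap5 and Spc24 and gained Ckap5. The interaction also had 23 calls with library totals, without Bub3, Cdc20 and Dlgap5, and 24 without the filter, without Bub3 and Dlgap5. The 37 calls for 5-FU in Tespa1-/- LSKs became 35 with the block, without Spc24 and Ttk, and 35 without the filter or in 1 fit over 12 libraries, without Cdc25c and Spc24. With 3 libraries a group, small differences in the less expressed members, such as Pttg1 and Kif18a, may be missed.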
